A study of Mus musculus with 16 samples.

Results

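Cthrc1, Prss35, Lrrc17, C1qtnf3, Cdh11 and Adam12 are 6 genes of connective tissue fibroblasts that were among the largest rises with mechanical loading in mouse skin wounds at day 14. They were taken as every probe set whose single gene symbol in the platform annotation is one of these names, which gave 9 probe sets of 34945 with 1 symbol, and 6 of 18193 genes. Cdh11, Adam12 and Lrrc17 each have 2 probe sets and the others 1. The members were chosen by their measured difference between stressed and unstressed wounds at day 14 (selected on that contrast), so the day 14 values of these 6 genes are given below as a description without a test. Their loading difference at day 6, from other arrays, is the measure of them that was tested, and for genes outside the 6 both days were tested. The spread in that test came from all 16 arrays, those of day 14 included.

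The arrays are Affymetrix GeneChips hybridised with total RNA from dorsal incisional wounds of wild-type C57BL/6 mice, all labelled female, in a model of hypertrophic scarring. Unstressed wounds of day 6, stressed wounds of day 6 after 48 hours of mechanical loading, unstressed wounds of day 14 and stressed wounds of day 14 after 10 days of loading each hold 4 arrays, numbered as replicates 1 to 4, and the design assigns 4 mice to each group. The age of the animals is not given in the sources used here. All values are log2 signals that lie around 0 for each probe set and appear to have been centred before deposit, on a reference that is unknown, so 0 is no absolute level, levels cannot be compared between genes, and a difference of 1 is 2-fold. The log base is not stated and was read as 2, and natural logs would make each difference larger than printed. Depth has no meaning for arrays, and the 4 arrays per group limit the precision.

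One feature of the arrays preceded all comparisons. Replicates 3 and 4 of both day 14 groups gave a mean signal of 4.38 to 5.39 over the probe sets of Xist. Xist is the RNA that silences an X chromosome in females. The other 12 arrays gave -0.38 to 0.52, which goes against a shared label of female. The more variable probe set of Eif2s3y, a gene of the Y chromosome, went the other way. It held -5.70 to -5.57 in those 4 arrays and -1.54 to 0.89 in the other 12. Its second probe set lay between -0.36 and 0.48 in all 16. The Xist and the more variable Eif2s3y signals thus divided the arrays in the same way, with every day 6 array among the 12. The day 14 differences of the 6 genes are therefore also given within replicates 1 and 2 and within replicates 3 and 4. Because whole wound tissue was measured, fewer cells of a type and less RNA per cell cannot be told apart.

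The 6 genes act at the surface of mesenchymal cells or in the matrix around them. Cthrc1 encodes a secreted glycoprotein with a short collagen-like stretch that was found in injured arteries, marks matrix-producing fibroblasts after injury and can take part in non-canonical Wnt signalling. C1qtnf3 encodes a secreted protein of the C1q and TNF related family, the family of adiponectin. Lrrc17 encodes a secreted leucine-rich repeat protein known from bone as an inhibitor of osteoclast formation, and Prss35 a secreted protein of the trypsin-like serine protease family. Cdh11 is the cadherin that joins mesenchymal cells to each other, and Adam12 is a disintegrin and metalloprotease of the cell surface found in developing and injured mesenchyme.

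The RefSeq promoter table (build GRCm38.p6) held 3 of the 6 genes, Prss35, Lrrc17 and C1qtnf3. Their promoters, each from 250 bases before to 50 bases after the start site, are shown as those available. Capitals mark matches on either strand to the TEAD motif GGAATG, the RUNX motif TGTGGT or the TATA motif TATAAA. The AP-1 motif TGANTCA, the SMAD motif GTCTAGAC and the CArG box were searched as well and had no match in the 3 windows. All 3 lie on the plus strand.
Prss35, chr9:86743383-86743682: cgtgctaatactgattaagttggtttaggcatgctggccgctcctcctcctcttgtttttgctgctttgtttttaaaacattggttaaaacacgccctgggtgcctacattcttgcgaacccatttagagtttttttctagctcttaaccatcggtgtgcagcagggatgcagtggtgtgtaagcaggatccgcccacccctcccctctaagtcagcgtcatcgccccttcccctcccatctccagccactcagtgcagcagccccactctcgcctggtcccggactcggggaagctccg
Lrrc17, chr5:21543277-21543576: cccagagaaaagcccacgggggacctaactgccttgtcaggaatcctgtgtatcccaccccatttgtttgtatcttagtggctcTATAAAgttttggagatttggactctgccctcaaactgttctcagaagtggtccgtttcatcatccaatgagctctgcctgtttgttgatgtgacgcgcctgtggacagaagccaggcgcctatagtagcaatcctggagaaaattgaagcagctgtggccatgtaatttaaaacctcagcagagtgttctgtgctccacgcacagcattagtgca
C1qtnf3, chr15:10952082-10952381: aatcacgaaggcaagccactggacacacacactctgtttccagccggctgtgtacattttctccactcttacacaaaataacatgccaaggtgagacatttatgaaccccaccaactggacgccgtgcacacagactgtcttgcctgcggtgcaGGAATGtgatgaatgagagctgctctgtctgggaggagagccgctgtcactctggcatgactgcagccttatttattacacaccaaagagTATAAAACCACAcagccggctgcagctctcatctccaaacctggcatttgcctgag
The C1qtnf3 window holds a TEAD match from base -96 to -91, counted from the start site as base 1 with no base 0. It also holds a TATA match from -6 to -1 that is directly followed by a RUNX match on the minus strand, and the Lrrc17 window holds a TATA match from -166 to -161. Of 32851 promoters of the same length, 14.7% hold the TEAD motif, 16.8% the RUNX motif, 13.6% the TATA motif, 7.81% the AP-1 motif, 0.213% the SMAD motif and 1.63% the CArG box. The E-box CANNTG, not capitalised, occurs at 2 places in each of the Lrrc17 and C1qtnf3 windows, at none in that of Prss35, and in 72.3% of all promoters. A match is a description of the letters only.

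Cthrc1 had the highest loading difference of all 34945 probe sets at day 14. Its signals in unstressed wounds of day 14 were -3.81, -4.18, -4.80 and -5.06 in replicates 1 to 4. In stressed wounds of that day they were 0.73, 1.40, 0.51 and 0.52. Every stressed array thus lay more than 4 above every unstressed one, and the means were -4.46 ± 0.57 and 0.79 ± 0.42 (SD, n = 4), a difference of 5.25 (SE 0.31) or 38.1-fold. It was 5.06 within replicates 1 and 2 and 5.45 within replicates 3 and 4. At day 6 the gene showed no such gap. Its unstressed signals were -0.73, -0.50, -0.91 and -0.14, and its stressed signals 0.46, -0.41, 0.31 and 0.97. Replicates 1, 3 and 4 of the stressed group lay above all unstressed arrays and replicate 2 lay among them. The day 6 difference was 0.90 (SE 0.31), or 1.87-fold, with an adjusted p of 0.601 in limma over all probe sets (unadjusted p = 0.011), so it did not pass the threshold of 0.05.

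Prss35 had the second highest difference at day 14. Its unstressed arrays of day 14 held -2.75, -3.90, -4.83 and -4.61 in replicates 1 to 4. Its stressed arrays held 2.64, 2.90, 0.46 and -1.91. The groups did not overlap, while stressed replicate 4 lay only 0.84 above the highest unstressed array and the stressed spread was the widest of the 6 genes (1.02 ± 2.24, SD, n = 4). The day 14 difference was 5.04 (SE 0.84), and it was 6.09 within replicates 1 and 2 and 4.00 within replicates 3 and 4. At day 6 the unstressed signals were -0.84, -0.15, -0.10 and 1.36, and the stressed ones 1.46, 0.10, 1.17 and 1.48. Replicate 4 of the unstressed group was as high as the stressed arrays. The difference of 0.98 (SE 0.84, adjusted p = 0.997 in limma) did not pass.

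Lrrc17 is read by a pair of probe sets that gave different pictures. For 1429679_at the unstressed signals at day 14 were -2.44, -2.70, -5.11 and -3.20, and the stressed ones 0.67, 2.08, -0.36 and -0.18. The groups lay apart by 2.08 at their nearest arrays, and the difference of the means was 3.91 (SE 0.56), or 15.1-fold, with 3.94 in replicates 1 and 2 and 3.88 in replicates 3 and 4. At day 6 this probe set held -0.47, 0.11, -0.16 and 0.20 in unstressed and 1.10, -0.11, 0.80 and 1.21 in stressed wounds, a difference of 0.83 (SE 0.56, adjusted p = 0.975 in limma). For 1454076_at all 16 arrays lay between -0.48 and 0.88, with differences of 0.19 at day 14 (SE 0.16; 0.39 in replicates 1 and 2, -0.0069 in replicates 3 and 4) and 0.04 at day 6 (SE 0.16, adjusted p = 1 in limma). Its values correlated with those of the other probe set at r = -0.28 over the 16 arrays, so the large difference of Lrrc17 rests on 1 probe set. Which of these probe sets reads the transcript better could not be judged from a centred table.

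C1qtnf3 had the tightest stressed group at day 14. The stressed arrays held 1.29, 1.27, 1.20 and 1.37, a mean of 1.28 ± 0.07 (SD, n = 4). The unstressed arrays were spread from -1.15 in replicate 1 through -2.25 and -2.62 in replicates 2 and 4 to -5.15 in replicate 3, a mean of -2.79 ± 1.69. The difference was 4.07 (SE 0.65), or 16.9-fold, and it was 2.98 within replicates 1 and 2 and 5.17 within replicates 3 and 4. At day 6 C1qtnf3 had the largest loading difference of the 6 genes, 1.78 (SE 0.65), or 3.43-fold. The unstressed signals of that day were -0.36, -0.01, -1.85 and -0.31, the stressed ones 1.22, 0.01, 1.33 and 2.03. The groups did not overlap, by 0.01 between the nearest arrays. It ranked 10 of 34945 probe sets by its day 6 difference and did not pass the threshold (adjusted p = 0.65 in limma, unadjusted p = 0.015).

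Cdh11 gave the same picture in both probe sets. For 1450757_at the unstressed signals at day 14 were -2.18, -1.80, -2.90 and -2.34, and the stressed ones 1.41, 1.60, 0.32 and 0.44. For 1435120_at they were -1.64, -1.68, -1.99 and -1.84, and 0.77, 1.22, 0.01 and 0.03. No arrays overlapped in either, and stressed replicates 3 and 4 were the lower stressed arrays in both. The day 14 differences were 3.25 (SE 0.41) and 2.30 (SE 0.32), or 9.52-fold and 4.91-fold. In replicates 1 and 2 they were 3.50 and 2.65, and in replicates 3 and 4 they were 3.01 and 1.94. At day 6 the stressed signals of 1435120_at were 1.01, -0.17, 1.18 and 1.62 against -0.60, -0.31, -0.52 and -0.01 in unstressed wounds. Replicate 2 was again the single stressed array among the unstressed ones. That day 6 difference was 1.27 (SE 0.32, adjusted p = 0.34 in limma, unadjusted p = 0.0013), the smallest p of the 9 probe sets, and 0.81 for 1450757_at (SE 0.41, adjusted p = 0.9). The probe sets of Cdh11 correlated at r = 0.96 over the 16 arrays.

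Adam12 had the widest stressed spread of the 6 genes at day 6, in 1 of its probe sets (SD 1.49). For 1421171_at the unstressed signals at day 14 were -3.13, -2.16, -2.90 and -1.61 and the stressed ones 2.02, 2.50, 0.81 and 0.29, a difference of 3.86 (SE 0.68). Within replicates 1 and 2 it was 4.91 and within replicates 3 and 4 it was 2.80. For 1421172_at the day 14 signals were -2.90, -2.30, -3.61 and -2.74 in unstressed and 0.57, 1.18, 0.32 and -0.28 in stressed wounds, a difference of 3.33 (SE 0.32), which was 3.48 within replicates 1 and 2 and 3.19 within replicates 3 and 4. The groups did not overlap in either probe set. At day 6 the stressed signals of 1421171_at were 1.39, -1.67, 1.08 and 1.41 against -0.99, -0.18, -1.74 and 0.50 in unstressed wounds, and the difference was 1.16 (SE 0.68, adjusted p = 0.95 in limma). Those of 1421172_at were 0.71, 0.28, 0.43 and 0.57 against -1.30, -0.91, -0.61 and 0.06, with no overlap and a difference of 1.19 (SE 0.32, adjusted p = 0.41 in limma, unadjusted p = 0.0022). The probe sets thus disagreed on stressed replicate 2 of day 6, which was the lowest stressed array in both.

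**Figure D1:**
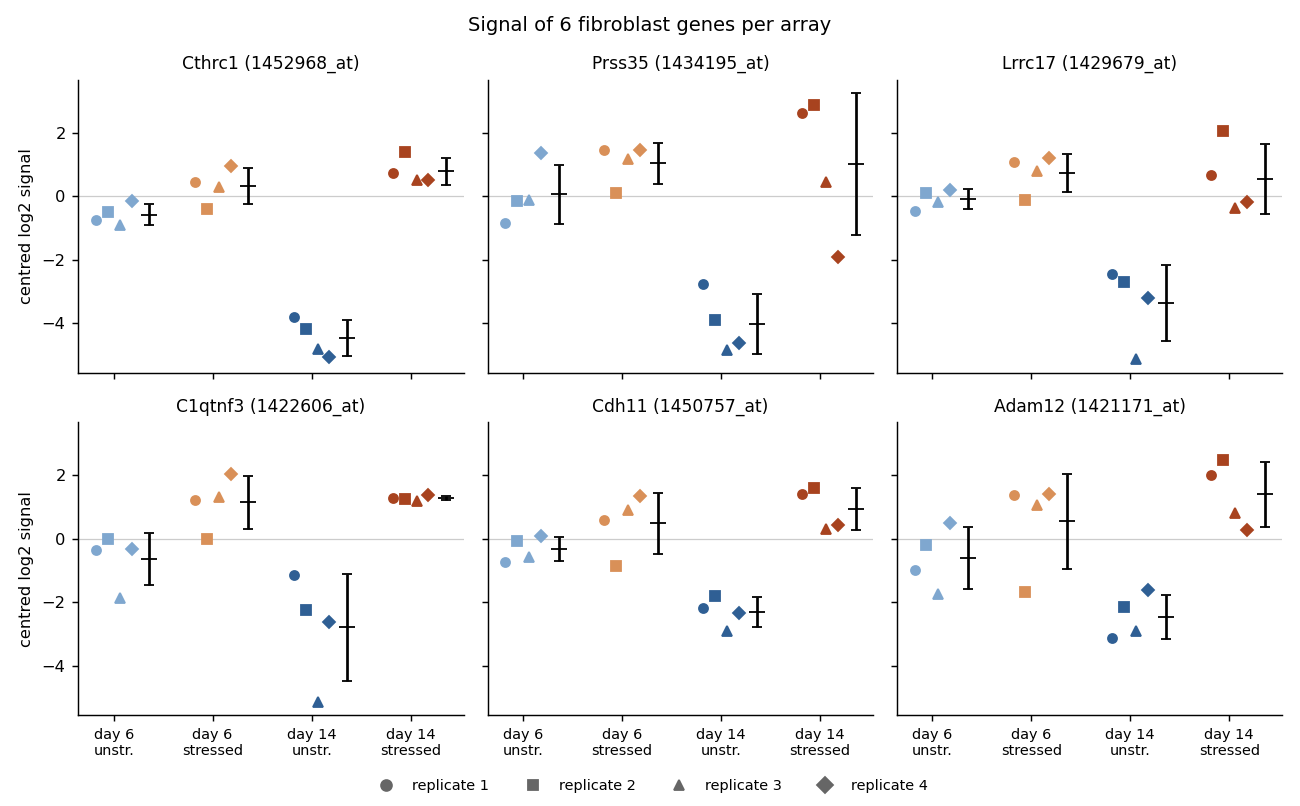
Centred log2 signal of each of the 6 genes in every array, by group (x axis), with the marker shape giving the replicate number and black bars the group mean ± SD (n = 4); where a gene has a pair of probe sets the more variable one is shown. The unstressed group of day 14 has the lowest mean in every panel, with Cthrc1 between -5.06 and -3.81 and some arrays of C1qtnf3 and Adam12 within the range of day 6, and replicate 2 is the lowest stressed array of day 6 in each panel.

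At day 14, 8 of the 9 probe sets had groups that did not overlap, where 5.55% of all probe sets did in that direction. The rule used this contrast, so nothing is read from this count. At day 6, 9 of 9 probe sets had a positive difference, with a median of 0.98, where 50.3% of all probe sets were positive with a median of 0.00. The groups did not overlap for 2 of the 9, C1qtnf3 and 1421172_at of Adam12, against 3.11% of all probe sets in that direction. The flat probe set of Lrrc17 stood at rank 14170 by its day 6 difference, and the other 8 stood at ranks 10 to 269 of 34945.

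None of the 9 passed an adjusted p of 0.05 in limma at day 6, where 0.0143% of all probe sets passed as higher, and 4 of 9 had an unadjusted p under 0.05 as higher, against 3.15% of all. These 4 were Cthrc1, C1qtnf3, 1435120_at of Cdh11 and 1421172_at of Adam12. The same 4 passed the adjusted threshold after quantile normalization between arrays (adjusted p from 0.025 to 0.04, where 0.967% of all probe sets passed as higher and 0.452% as lower) and with array weights (adjusted p from 0.0061 to 0.045, where 0.962% passed as higher and 0.73% as lower). Without stressed replicate 2 of day 6 none passed, and the differences were 1.15 for Cthrc1, 1.30 for Prss35, 1.11 for 1429679_at of Lrrc17, 2.16 for C1qtnf3, 1.63 and 1.27 for Cdh11 and 1.90 and 1.26 for Adam12. The smallest adjusted p without it was 0.078, for 1435120_at of Cdh11. Quantile normalization was run on values already centred per probe set and gave all arrays the same distribution. It moved the median difference of the 9 from 0.98 to 1.63 at day 6 and from 3.86 to 2.88 at day 14. The passes after it are thus given as a dependence on the processing only.

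**Figure D2:**
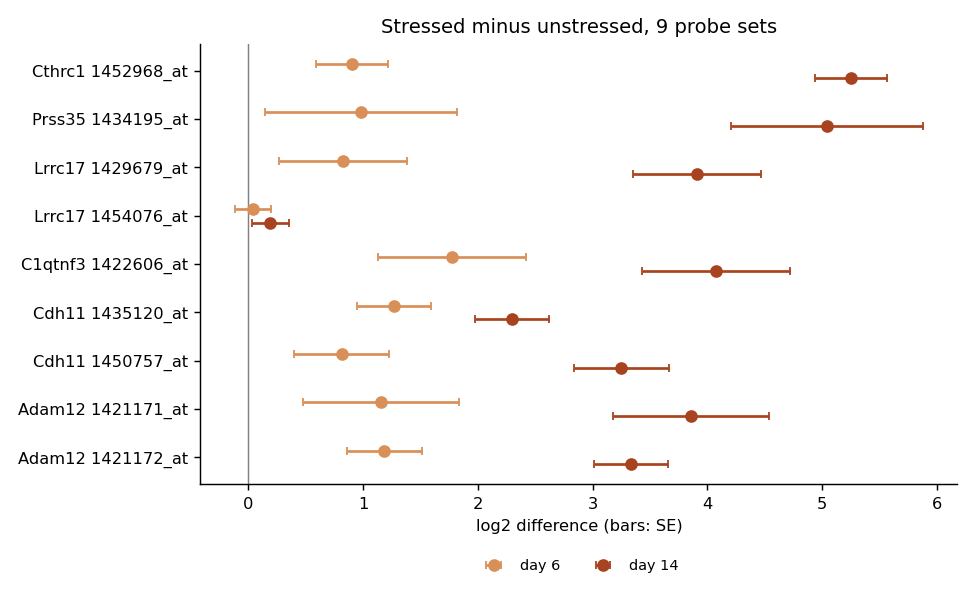
Log2 difference of stressed minus unstressed wounds (x axis) for each of the 9 probe sets at day 6 (light points) and day 14 (dark points), with bars for the SE of the limma fit. At day 14, 8 probe sets lie between 2.30 and 5.25 and the second one of Lrrc17 at 0.19, while all day 6 differences lie between 0.04 and 1.78.

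The change with time differed in size between unstressed and stressed wounds. In unstressed wounds 8 of the 9 probe sets were lower at day 14 than at day 6. The day 14 minus day 6 differences were -3.89 for Cthrc1 (SE 0.31), -4.09 for Prss35 (SE 0.84) and -3.28 for 1429679_at of Lrrc17 (SE 0.56). They were -2.16 for C1qtnf3, -1.43 and -1.98 for the probe sets of Cdh11 and -1.85 and -2.20 for those of Adam12. The unstressed arrays of the days did not overlap for 6 probe sets, against 21.8% of all probe sets with day 14 lower. The rule favours low unstressed values at day 14, so nothing is read from this count. The exceptions were C1qtnf3, 1421171_at of Adam12 and the flat probe set of Lrrc17, which was 0.60 higher at day 14.

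In stressed wounds the same 8 probe sets differed by -0.40 to 0.85 between the days, and their arrays overlapped in all 8, where 39.9% of all probe sets had no overlap between the days in stressed wounds. The differences were 0.46 for Cthrc1 (SE 0.31), -0.03 for Prss35 (SE 0.84), -0.20 for 1429679_at of Lrrc17 (SE 0.56) and 0.14 for C1qtnf3 (SE 0.65). For Cdh11 they were -0.40 and 0.45, and for Adam12 0.85 and -0.05. The large difference at day 14 was thus, in group means, a low unstressed signal beside a stressed signal near that of day 6. Every day 6 array had a low Xist signal. Each day 14 group mixed low-Xist arrays (replicates 1 and 2) with high-Xist ones. Stressed Prss35 at day 14 averaged 2.77 with low and -0.72 with high Xist signal, against 1.05 at day 6. For C1qtnf3 these means were 1.28 and 1.29, against 1.15. Unstressed means of the same 8 probe sets lay below day 6 in both kinds of array. The part of this mixture in the differences between days was not tested. Of all probe sets, 3.79% fell by 1 or more with time in unstressed wounds while moving by less than 1 in stressed wounds. These bounds were set after the values of the 6 genes were seen. The counts and shares between days rest on day 14 arrays that the rule used, so nothing is read from them. The loading difference was larger at day 14 than at day 6 by 4.35 for Cthrc1 (SE 0.44), 4.06 for Prss35 (SE 1.18), 3.08 for 1429679_at of Lrrc17 (SE 0.79), 2.30 for C1qtnf3 (SE 0.91), 1.03 and 2.44 for Cdh11 and 2.70 and 2.15 for Adam12, and these were not tested because they hold the day 14 arrays.

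**Figure D3:**
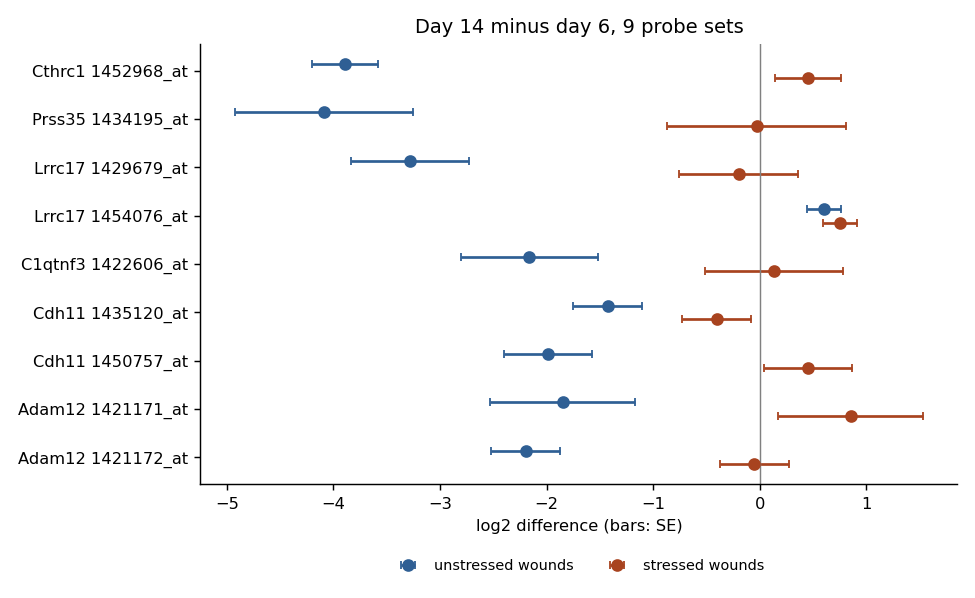
Log2 difference of day 14 minus day 6 (x axis) for each of the 9 probe sets in unstressed (blue) and stressed (red) wounds, with bars for the SE of the limma fit. In unstressed wounds 8 probe sets lie between -4.09 and -1.43, and the same 8 lie between -0.40 and 0.85 in stressed wounds.

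The 6 genes also varied together among arrays of the same group. Each gene was taken by its more variable probe set, its group mean was subtracted, and the deviations of each pair were correlated over the 16 arrays, which removes the differences between groups that chose the genes. All 15 pairs correlated positively, from r = 0.33 for Prss35 with C1qtnf3 to r = 0.85 for Cdh11 with Adam12, with a median of 0.68. The deviations of the 2 probe sets of 1 gene correlated at r = 0.96 for Cdh11, 0.60 for Adam12 and -0.04 for Lrrc17. Pairs with Adam12 or Lrrc17 thus rest on the probe set taken. The days differed for some pairs. At day 6 the 15 pairs ran from 0.44 to 0.94 (8 arrays, median 0.84), and at day 14 from 0.03 to 0.88 (median 0.66). C1qtnf3 with Adam12 had r = 0.85 at day 6 and 0.03 at day 14, and Cthrc1 with Adam12 0.92 and 0.14. Over all 34936 probe sets of other genes with 1 symbol, the median r of deviations with each of the 6 lay between -0.042 and -0.0058, and 1.10% to 5.64% of them exceeded that gene's median r with the other 5. The points share arrays, and the deviations are a description without a test. In 4 arrays all 6 genes lay below their group mean. These were stressed replicate 2 of day 6 (mean deviation -1.21), unstressed replicate 3 of day 6 (-0.53), unstressed replicate 3 of day 14 (-1.05) and stressed replicate 3 of day 14 (-0.51). In 4 others all 6 lay above it, namely unstressed replicate 4 and stressed replicates 1 and 4 of day 6 and unstressed replicate 2 of day 14.

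At day 14 the mean deviations split by replicate number in stressed wounds, and less clearly in unstressed wounds. In stressed wounds the mean deviations of replicates 1 and 2 were 0.46 and 0.96, and those of replicates 3 and 4 were -0.51 and -0.91. In unstressed wounds they were 0.65 and 0.40, and -1.05 and -0.0083. Unstressed replicate 4 had 3 of 6 genes above their group mean. Prss35 had stressed means of 2.77 in replicates 1 and 2 and -0.72 in replicates 3 and 4. For Cthrc1 these means were 1.06 and 0.52, and for C1qtnf3 1.28 and 1.29. The same replicate numbers differ in the Xist signal, whose part in the split was not tested. Without stressed replicate 2 of day 6, the median correlation of deviations was 0.65 and all 15 pairs stayed positive.

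**Figure D4:**
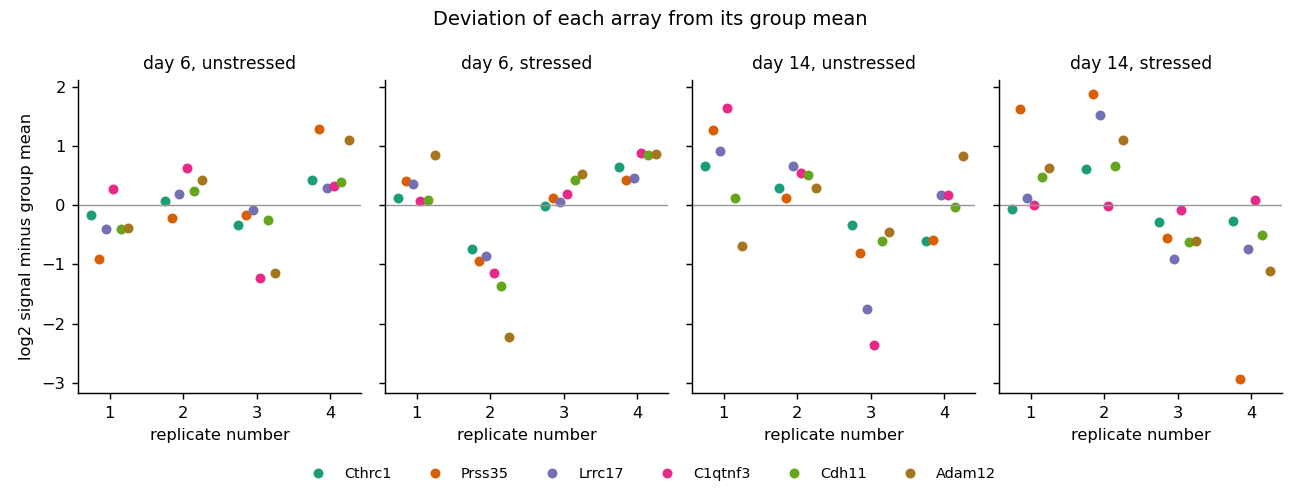
Deviation of each array from its group mean (y axis, log2) for the 6 genes, by replicate number (x axis) in the 4 groups, 1 colour per gene. The 6 genes shift together in several arrays, such as stressed replicate 2 of day 6, where they lie between -2.23 and -0.74.

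Markers of fibroblasts were, in their mean, also higher in stressed than in unstressed wounds on both days. The 6 genes were chosen for large day 14 differences, so the size of theirs is not compared with that of the markers. The mean over 19 probe sets of 10 fibroblast markers lay at -0.31 to 0.00 in unstressed and 0.18 to 0.35 in stressed wounds of day 6, and at -1.93 to -0.72 in unstressed and -0.11 to 0.25 in stressed wounds of day 14. Their median loading difference was 0.57 at day 6, where 18 of 19 were positive and 0 passed (7 at an unadjusted p under 0.05 in limma), and 1.02 at day 14, where 10 rose and 0 fell. Stressed replicate 2 of day 6, low for all 6 genes, was the lowest of its group for these markers too, at 0.18. That low place was not particular to fibroblast markers. The same array was the lowest of its group for myofibroblast, pericyte (-0.32), macrophage, keratinocyte (-0.30), skeletal muscle and endothelial markers. It was not the lowest for neutrophil, adipocyte, cartilage and bone, Schwann cell and hair follicle markers. Defining markers could not be read as present or absent in centred values.

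Markers of other cells moved with loading at day 14 as well. The mean over skeletal muscle markers (11 probe sets, 7 of which fell) ran from -1.32 to 1.31 in unstressed and from -3.91 to -0.29 in stressed wounds. That over adipocyte markers (11 probe sets, 9 fell) ran from 0.75 to 1.82 and from -1.96 to 0.54. Macrophage and monocyte markers (15 probe sets, 9 rose) ran from -2.27 to -1.30 and from -0.93 to 0.05, and neutrophil markers (6 probe sets, 3 rose) from -2.30 to -1.33 and from -0.83 to 0.91. The part of these cells in the differences of the 6 genes was not tested. Markers of cartilage and bone, tissues in which Cdh11, Lrrc17 and Cthrc1 are also known, ran from 0.39 to 0.50 in unstressed and from 0.21 to 0.37 in stressed wounds of day 14, and 1 of their 10 probe sets rose and 2 fell.

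At day 14 the ranges of the other marker lists (myofibroblast, pericyte, keratinocyte, endothelial, Schwann cell and hair follicle) overlapped between the groups. Among myofibroblast and smooth muscle markers 0 of 10 probe sets rose and 1 fell, and among pericyte markers 3 of 10 rose and 1 fell. Of 15 keratinocyte and 7 endothelial probe sets 0 rose and 0 fell (5 and 3 at an unadjusted p under 0.05 in limma). Of 7 hair follicle probe sets 0 rose and 1 fell, and of 13 Schwann cell probe sets 0 rose and 5 fell. None of these lists had a called probe set at day 6 in limma, where the cartilage and bone list and the myofibroblast list each had 1 at an unadjusted p under 0.05.

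A list of genes of activated fibroblasts in wounds and scars, like all lists here, was written with earlier results of these data known. Of its 44 probe sets for 19 genes, 22 rose and 1 fell at day 14, where 3.31% of all probe sets rose and 4.04% fell, with a median of 1.36 against 0.01 over all. The largest were those of the collagen gene Col8a1 (4.88, SE 0.39, adjusted p = 3.4e-05 in limma), the small leucine-rich proteoglycan Aspn (4.85, SE 0.56) and the matricellular gene Ccn3 (4.55, SE 0.45). With the 8 day 14 arrays alone 13 rose and 0 fell, where 0.292% of all probe sets rose and 0.0572% fell. The 1 that fell was of Sdc1, a cell surface proteoglycan (-0.82, SE 0.19). At day 6 Comp alone rose, by 0.96 (SE 0.14, adjusted p = 0.03 in limma), a call lost with the 8 day 6 arrays alone (adjusted p = 0.086), and 38 of 44 were positive with a median of 0.77. The Comp call was also lost without unstressed replicate 1, 3 or 4 of day 6, stressed replicate 1, 3 or 4 of day 6, unstressed replicate 2 of day 14 or stressed replicate 3 of day 14 (adjusted p from 0.054 to 0.16). At day 14 Comp differed by 0.23 (SE 0.14, adjusted p = 0.37 in limma).

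Genes of quiescent fibroblasts gave other values. Of 26 probe sets for 13 genes, 3 rose and 4 fell at day 14, with a median of -0.21, and at day 6 0 passed and 21 were positive with a median of 0.38 (6 at an unadjusted p under 0.05 in limma). The microfibril-associated genes Mfap4 (3.18, SE 0.33) and Mfap5 (1.95 and 1.76 for its probe sets) were those that rose. All 4 that fell were probe sets of Gsn, gelsolin. With the 8 day 14 arrays alone 1 rose and 0 fell. Mfap5 had the smallest p of the list at day 6, with a difference of 1.60 (SE 0.31, adjusted p = 0.14 in limma).

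**Figure D5:**
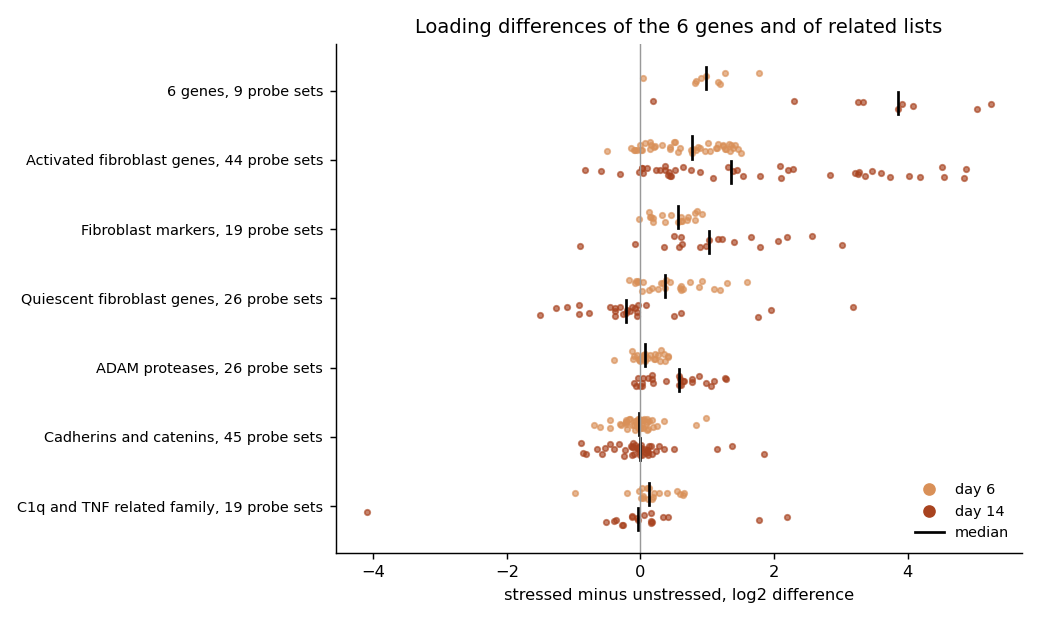
Log2 difference of stressed minus unstressed wounds (x axis) at day 6 (light) and day 14 (dark) for the 9 probe sets of the 6 genes and for the probe sets of 6 related lists, 1 point per probe set, with black bars at the medians. The 6 genes have medians of 0.98 and 3.86, activated fibroblast genes 0.77 and 1.36, and quiescent fibroblast genes 0.38 and -0.21. The 6 were chosen on the day 14 contrast, so their day 14 median is not compared with those of the lists.

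The relatives of the 6 genes were listed by family. The 6 were chosen for large day 14 differences, so their standing against their relatives at that day follows from the choice and is not compared. In the C1q and TNF related family, 2 of 19 probe sets rose and 1 fell at day 14. C1qtnf6 rose by 2.19 (SE 0.35, adjusted p = 0.0027 in limma) and C1qtnf2 by 1.77 (SE 0.32), while Adipoq, adiponectin, fell by 4.09 (SE 0.90). Of 45 probe sets for cadherins and catenins 2 rose and 1 fell. Both that rose were those of Cdh2, N-cadherin (1.84, SE 0.42, and 1.37, SE 0.37), and a probe set of Ctnna1, alpha-catenin, fell by 0.57. Of 26 probe sets for other ADAM proteases 5 rose and 0 fell, at most by 1.27, for Adam8 and Adam19, with 0.78 for Adam17.

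Of 26 probe sets for serine proteases 2 rose and 1 fell at day 14. Plat, tissue plasminogen activator, rose by 1.87 (SE 0.34), Htra1 by 1.26 (SE 0.35, adjusted p = 0.042 in limma; blocking on replicate number gave 0.052), and Prss8, an epithelial protease, fell by 1.30. In the osteoclast axis, on which Lrrc17 is known to act, 4 of 25 probe sets rose and 0 fell. They included 2 of the macrophage growth factor receptor Csf1r (1.45 and 1.08) and 1 of Oscar (0.55, adjusted p = 0.038 in limma, and 0.085 when blocked). Tnfsf11, which encodes the ligand RANKL, differed by 0.12 and 0.08. In the non-canonical Wnt and planar polarity list, 0 of 52 probe sets rose and 2 fell, Fzd7 (-0.99, SE 0.24) and Dvl1 (-0.77, SE 0.22, adjusted p = 0.046 in limma, and 0.0501 when blocked). With the 8 day 14 arrays alone, 0 probe sets of these 6 family lists passed as higher or lower in limma. Adipoq also stands in the adipocyte list and Csf1r in the macrophage list.

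Several of these family calls depended on single arrays. Without stressed replicate 2 of day 14, the calls of Adipoq, Adam8, Adam17, Adam19, Ctnna1, Fzd7 and 1 probe set each of Cdh2, Csf1r and Mfap5 were lost (adjusted p in limma from 0.056 to 0.11). The calls of Dvl1, Htra1, Oscar and Prss8 were lost in 11, 13, 9 and 13 of the 16 fits that each left out 1 array. C1qtnf6, C1qtnf2, Plat, Col8a1, Aspn, Ccn3 and Mfap4 passed without each array in turn.

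At day 6 none of these 6 family lists had a called probe set in limma, where 0.0143% of all probe sets were called higher and 0.0114% lower. Those with an unadjusted p under 0.05 numbered 5 of 52 in the Wnt list, 2 of 19 in the C1q list, 4 of 45 among cadherins and catenins, 0 of 26 among ADAM proteases, 3 of 26 among serine proteases and 2 of 25 in the osteoclast axis. The smallest p-values belonged to Daam1 (0.47, adjusted p = 0.58), C1qtnf4 (-0.97, adjusted p = 0.36), Cdh2 (0.98, adjusted p = 0.8), Adam33 (0.22, adjusted p = 0.9), Plat (0.65, adjusted p = 0.43) and Tnfrsf11b, osteoprotegerin (0.99, adjusted p = 0.41 in limma).

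For each of the 6 genes, the probe sets of other genes most like it were ranked by Pearson r of the values over the 16 arrays. The search kept 1 probe set per gene and skipped genes named as clones or predicted genes. For Cthrc1 they were Col8a1 (r = 0.98), Col5a2 (0.97) and Postn, periostin (0.97). For Lrrc17 they were the peptidyl-prolyl isomerase Fkbp7 (0.99), Col5a1 (0.99) and Mmp23 (0.98), and for C1qtnf3 Col14a1 (0.98), Aspn (0.96) and the proteoglycan gene Lum (0.96). Cdh11 lay closest to Fam114a1 (0.97), the collagen chaperone Serpinh1 (0.97) and the isomerase Ppic (0.96). Prss35 lay closest to Ppic (0.97), Megf6 (0.97) and Adam17 (0.96), and Adam12 to the matrilin gene Matn2 (0.96), Fam114a1 (0.95) and St3gal4 (0.95). A collagen gene stood among the first 3 for Cthrc1, Lrrc17 and C1qtnf3. Among the 6 genes themselves, r of the values ran from 0.81 to 0.95 over the 15 pairs. These values hold the day 14 contrast that chose the 6 genes, which favours a high r. Nothing is therefore read from these r or from the genes ranked by them. The median of the 15 pairs was 0.91 for values and 0.68 for deviations from the group means.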

How the data were processed

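RNA of 16 wounds in 4 groups of 4 was measured on Affymetrix arrays. GeneSpring GX 11.0 was the authors' software, as stated in the design text. The deposited values were read as log2 signals that the authors centred per probe set, since every probe set has 4 to 11 of its 16 values below 0. What they were centred on is unknown (the median over the 16 arrays is 0, within 1e-04, for 6.26% of probe sets) and cancels in differences between arrays. The sources used here do not give the background correction, normalization or log base. Of 45101 probe sets, 34945 had 1 symbol in the platform annotation and were used, without a filter on low values, and 932 had several and 9224 none.

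A linear model with 1 mean per group and all 16 arrays was run on every probe set in limma (lmFit and eBayes, version 3.58.1, R 4.3.3), with two-sided p-values adjusted by Benjamini-Hochberg over all 34945 and a threshold of 0.05. Rose and fell mean past that threshold. Fold changes are 2 to the power of the log2 difference. The fit was tested on simulated data of 34945 probe sets. At day 6 it recovered 67% of 100 changes of 1 and 95% of 100 changes of 2 on the log2 scale, with 7 false calls, and at day 14 67% and 93%, with 12. The noise was normal and independent between probe sets.

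The 6 genes and all lists were chosen with earlier results of these data known. Named genes were the 6, for each the 3 most alike by each measure, and per list and day up to 3 called probe sets by size, or the smallest p where none was called. Tnfsf11, Comp at day 14, Gsn and Sdc1 were named after their values were seen. Same-numbered arrays of day 14 had correlated deviations from their group means over all probe sets (r = 0.25, 0.17, 0.26 and 0.14), all above 0.1, so the numbers were used as a block in an alternative fit. At day 6 these were -0.15, -0.42, -0.24 and 0.00, so the numbers do not pair the arrays there. No 2 replicates held the same values. Alternatives were quantile normalization, array weights, the replicate block, the arrays of 1 day, 1 probe set per gene, the more variable probe sets, the Xist classes and leaving out each array. Plots were made with Python 3.11.15 and matplotlib 3.10.9.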

Additional observations from a re-analysis of the deposited data

Results flagged for a closer look

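In 1 of 36 groups of 4 arrays (9 probe sets in 4 groups) a single array stood apart from the others by Dixon's criterion, which chance meets in about 1 of 20 groups. It was stressed replicate 2 of day 6 for 1421171_at of Adam12, at -1.67, where the other stressed arrays of that day lay between 1.08 and 1.41. The second probe set of Adam12 held 0.28 in the same array, the lowest of its group.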

How the results depend on the processing

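The day 6 differences of 8 probe sets stayed positive under every alternative run, as did the day 14 differences of the same 8. The flat probe set of Lrrc17 had a day 6 difference of -0.040 after quantile normalization and of -0.031 to 0.15 without each replicate (-0.031 without stressed replicate 2, -0.0057 without stressed replicate 3 and -0.013 without unstressed replicate 4 of day 6). The median day 6 difference of the 9 probe sets was 1.63 after quantile normalization and 0.80 to 1.39 without each replicate. The median day 14 difference was 2.88 after quantile normalization, 3.19 within replicates 3 and 4 and 3.29 to 4.05 without each replicate. The number of the 9 called higher at day 6 was 4 after quantile normalization and 4 with array weights, and 0 without each replicate.

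Over the whole table, 5 probe sets were called higher and 4 lower at day 6, against 338 and 158 after quantile normalization, 336 and 255 with array weights, 1 and 0 with the replicate block and 12 and 4 with the arrays of that day. At day 14 these counts were 1156 and 1411, against 188 and 176, 2244 and 2905, 967 and 1219, and 102 and 20. Over all 8 lists, 1 probe set was higher at day 6. This count was 17 after quantile normalization, 19 with array weights, 3 with the arrays of that day, 0 with the replicate block, 0 with the block in the arrays of that day, 0 with the more variable probe sets, and 0 to 2 without each replicate. Called lower were 0, and 1 each after quantile normalization and with array weights. At day 14, 40 were higher and 10 lower. The higher count was 21 after quantile normalization, 14 with the arrays of that day, 21 with the block in them, 22 with 1 probe set per gene and 29 to 50 without each replicate. The lower count was 4 after quantile normalization, 0 with the arrays of that day, 2 with the block in them, 18 with array weights, 5 with 1 probe set per gene, 24 within replicates 1 and 2, 3 within replicates 3 and 4 and 4 to 21 without each replicate (4 without stressed replicate 2 and 21 without stressed replicate 4 of day 14). One probe set per gene tests fewer features, the fits within replicates use fewer arrays, and for the other settings the cause was not tested. The fit with the arrays of 1 day and the block, and leaving out arrays in the correlations, were added after the data were seen. The replicate block left the median differences of the 9 probe sets at 0.98 and 3.86, and it changed no call of the 9 at day 6. The correlation of deviations kept a median between 0.62 and 0.84 over its alternatives.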

Other observations

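The genes whose deviations from the group means were most like those of the 6 genes were mostly other genes than those most alike by value. For Cthrc1 they were Hs2st1, a heparan sulfate sulfotransferase (r = 0.95), Wdr6 (0.90) and the chromatin protein Rbbp4 (0.90). For Lrrc17 they were Dact1, a Wnt pathway modulator (0.98), Idh2 (0.97) and the collagen-folding isomerase Fkbp14 (0.96). C1qtnf3 lay closest to Svil (0.93), Lum (0.93) and Ankdd1b (0.93), and Cdh11 to Rab30 (0.94), Fbxw2 (0.94) and Marcks (0.94). Prss35 lay closest to Il1f9, an epidermal cytokine gene (0.94), Adam17 (0.92) and the glutaredoxin gene Glrx (0.92), and Adam12 to Cdc42bpa (0.95), Dgkh (0.93) and Tm9sf3 (0.93). Each r is over 16 arrays and among the 3 highest found in a search, so it is a description of that search. The search left out the 6 genes and genes named as clones or predicted genes, and kept 1 probe set per gene. Lum for C1qtnf3 and Adam17 for Prss35 stood among the first 3 by both measures. The day 14 loading difference was 0.34 for Hs2st1 and 1.59 for Dact1.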
